A study of Mus musculus with 14 samples.

Results

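The transcripts of 7 genes of the Nodal pathway were followed across mouse embryonic stem (ES) cells that differed in DNA methyltransferases, in Tet1 and in exposure to a polycomb inhibitor. The genes were Nodal and Gdf3 (ligands), Tdgf1 (co-receptor), Lefty1, Lefty2 and Cer1 (secreted antagonists) and Smad7 (an intracellular inhibitor). They were chosen by symbol, with earlier results of these data known. All 7 were found among the 37991 Ensembl gene IDs of each of 2 deposited tables of read counts. All 14 libraries came from poly(A) RNA of cells of the J1 129S4/SvJae background and formed 7 groups of 2. In experiment 1, wild-type cells and cells labelled Dnmt-TKO, called TKO cells here, were each given the vehicle DMSO or PRT4165, which inhibits PRC1, a polycomb complex. In experiment 2, the groups were wild-type cells, TKO cells, and TKO cells that also carried a Tet1 knockout (Tet1-KO TKO cells), with no treatment named for any of them. TKO cells lack the 3 DNA methyltransferases Dnmt1, Dnmt3a and Dnmt3b, and Tet1 encodes an enzyme that oxidises methylated cytosine. No group carried the Tet1 knockout alone. The labels do not say whether a genotype was 1 clone or several, so genotype and line cannot be told apart. They number the replicates without saying that these were separate cultures, so the p-values measure the spread between these libraries, which may be technical.

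Nodal is a ligand of the TGF-beta superfamily. It binds type I and type II activin receptors together with the co-receptor Cripto, the product of Tdgf1, and the receptors phosphorylate Smad2 and Smad3, which act in the nucleus with Smad4 and factors such as Foxh1. Among the targets of this signal are Nodal itself and the Lefty genes, whose secreted products block the ligand and its co-receptor, so that the pathway raises both its activator and its antagonist. ES cells make and respond to these ligands.

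How far the counts can be told apart between genes depends on their sequences. Lefty1 and Lefty2 are near-identical neighbours on chromosome 1, so reads from stretches they share cannot be assigned to either gene. Their coding sequences, from the GENCODE M21 transcripts, were both 1107 bases long with the stop codon and matched at 1017 bases, or 91.9%. The most different stretch of 90 bases ran from coding base 35 to 124 and held 27 mismatches, shown in capitals, 5′ to 3′:
Lefty1: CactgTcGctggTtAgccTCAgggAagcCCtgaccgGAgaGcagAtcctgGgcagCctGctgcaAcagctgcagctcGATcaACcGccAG
Lefty2: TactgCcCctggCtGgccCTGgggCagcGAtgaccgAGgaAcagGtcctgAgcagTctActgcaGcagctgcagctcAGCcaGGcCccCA
Of all distinct stretches of 50 bases in Lefty1 transcripts, 17.9% also occurred in Lefty2, and of those in Lefty2 11.99% occurred in another gene, nearly all in Lefty1. Tdgf1 shared 8.86% of its stretches with the pseudogene Tdgf1-ps1. Gdf3 shared 1.77%, Cer1 1.78%, and Nodal and Smad7 none. How the authors' counting treated such reads is not given in the sources used here, so levels of Lefty1, Lefty2 and Tdgf1 carry that uncertainty. No member shared exon bases with an overlapping gene in that annotation.

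Since TKO cells lack the DNA methyltransferases, the CpG dinucleotides at the start sites were also counted. RefSeq promoter windows of 300 bases (most of it before the start site, build GRCm38.p6) were at hand for 3 members, Nodal, Tdgf1 and Cer1. The letters CG, which read the same on both strands, occurred 5 times in the Nodal window, 7 times in that of Tdgf1 and 6 times in that of Cer1. The median over 32851 such windows was 7, and 62.0%, 52.1% and 56.4% of windows held at least as many as these members. Methylation was not analysed here. The windows of Nodal, one of the members that rose in TKO cells, and of Tdgf1, one that fell, are shown 5′ to 3′ on the gene's strand with each CG in capitals. The Nodal window lies at chr10:61417722-61418021 on the plus strand and the Tdgf1 window at chr9:110946109-110946408 on the minus strand:
Nodal: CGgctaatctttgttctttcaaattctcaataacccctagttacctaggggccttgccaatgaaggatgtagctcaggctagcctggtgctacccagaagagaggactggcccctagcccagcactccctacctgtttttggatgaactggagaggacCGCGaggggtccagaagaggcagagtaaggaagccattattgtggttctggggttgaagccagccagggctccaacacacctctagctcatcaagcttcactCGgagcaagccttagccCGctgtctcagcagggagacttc
Tdgf1: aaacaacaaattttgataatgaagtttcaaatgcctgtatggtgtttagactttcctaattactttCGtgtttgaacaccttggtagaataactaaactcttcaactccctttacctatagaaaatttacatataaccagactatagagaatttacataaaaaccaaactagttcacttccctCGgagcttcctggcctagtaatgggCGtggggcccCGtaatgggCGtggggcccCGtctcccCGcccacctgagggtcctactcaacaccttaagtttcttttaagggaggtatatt

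Total counts per library ran from 25588815 to 37399837 in the first experiment and from 23354015 to 41844823 in the second. The biological coefficient of variation, edgeR's estimate of the spread between replicates, was 3.73% in experiment 1 and 10.5% in experiment 2, so the second experiment was the less precise. Transcripts of the targeted genes followed the labels but persisted, and counts per gene do not show which exons were left: Dnmt1 stood at 305 to 434 CPM (counts scaled to library size, with TMM factors) in wild-type libraries and at 116 to 158 CPM in the libraries of TKO background, and Tet1 at 134 and 201 CPM in Tet1-KO TKO cells against 741 and 791 CPM in untreated TKO cells. All 10 ES cell markers, Pou5f1 and Nanog among them, were detected in every library, with a summed level of 3528 to 6485 CPM. Feeder fibroblast markers (10 genes) summed to 7.94 to 18.8 CPM in all libraries. Col3a1, Dcn, Lum and Postn were at 0 in wild-type vehicle cells and had reads in every group of TKO background. In the other wild-type groups Col3a1 and Postn had reads. Only Dcn was at 0 in wild-type inhibitor cells, and only Dcn and Lum in untreated wild-type cells. Of 7 tested feeder markers 4 rose in TKO vehicle cells, Postn, Col3a1 and Fbln2 among them, and 2, Thy1 and Pdgfrb, fell. In that comparison 34.8% of all tested genes rose and 34.2% fell. Postn and Col3a1 reached at most 1.86 and 1.55 CPM in any library. Trophoblast markers (9 genes) differed most: their summed level was 75.8 to 97.0 CPM in wild-type cells without inhibitor, 137 to 141 CPM in wild-type inhibitor cells, 880 to 914 CPM in TKO vehicle cells, 1226 to 1228 CPM in TKO inhibitor cells, 204 to 206 CPM in untreated TKO cells and 607 to 756 CPM in Tet1-KO TKO cells. Endoderm markers (13 genes) summed to 179 to 315 CPM in experiment 1 and to 90.3 to 353 CPM in experiment 2. The part of these other markers in the results below was not tested. In such bulk RNA, fewer cells of a type and less RNA per cell cannot be told apart.

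Per kilobase of exon, Tdgf1 was the most abundant member in every group. In wild-type vehicle cells it stood at 292 ± 4.27 CPM per kb (mean ± SD, n = 2 libraries, as below), followed by Smad7 at 35.4 ± 0.0824, Gdf3 at 31.8 ± 1.56, Lefty1 at 23.1 ± 0.136, Lefty2 at 22.8 ± 2.42 and Nodal at 22.7 ± 0.149 CPM per kb. The 2 Lefty2 libraries lay on either side of those of Lefty1 and Nodal, so this order among the 3 is not resolved. In untreated wild-type cells the order was Tdgf1 at 690 ± 88.4, Lefty2 at 78.1 ± 1.70, Lefty1 at 75.4 ± 15.0, Smad7 at 53.0 ± 1.79, Gdf3 at 21.3 ± 0.973 and Nodal at 21.1 ± 0.214 CPM per kb, and neither the Lefty genes nor Gdf3 and Nodal were separated. The tables were scaled separately, so differences in level between the experiments were not tested.

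**Figure D1:**
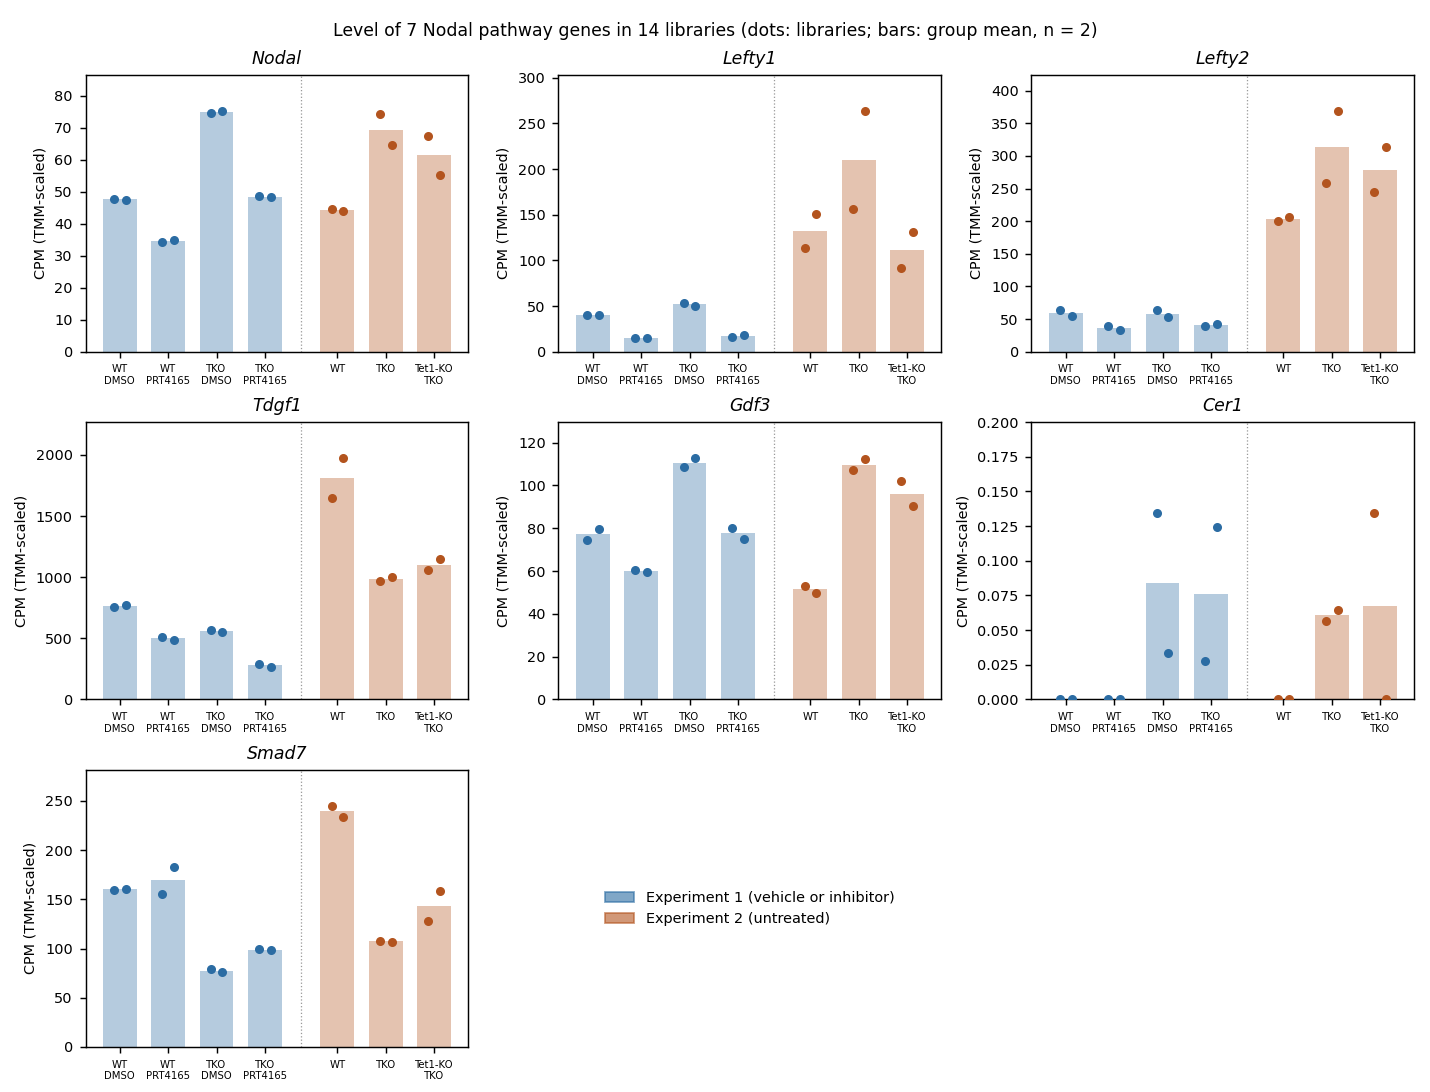
Level of each of the 7 genes in TMM-scaled CPM (linear axis from 0, its range set per gene) in the 14 libraries. Dots are libraries, replicate 1 on the left, and bars are group means (n = 2). Nodal, Gdf3, Lefty1, Lefty2 and Tdgf1 were lower with PRT4165 than with DMSO in both genotypes, Smad7 was lower in TKO than in wild-type cells in both experiments, and Cer1 never exceeded 5 counts in a library.

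Of the 7 genes, 6 could be tested. Their lowest count in any library was 380, so none passed the filter on low counts through 1 group alone, whereas Cer1 did not pass it. In TKO cells the ligand transcripts Nodal and Gdf3 were higher and Tdgf1 and Smad7 lower than in wild-type cells, with vehicle and without treatment. Under vehicle, 3 of 6 rose and 2 fell (median log2 change 0.165), where 34.8% of the 16711 genes tested rose and 34.2% fell (median 0.0116). Without treatment, 4 of 6 rose and 2 fell (median 0.634), where 25.9% of 16303 genes rose and 24.3% fell (median -0.00378). Under vehicle 11531 of the 16711 genes tested were called, so the count of 5 members of 6 says little by itself. Markers moved with the same genotype change. Of 7 tested primed epiblast markers, 6 rose and 1, the deleted Dnmt3b, fell in TKO cells both under vehicle (median 1.94) and without treatment (median 2.41). Pou3f1, also on that list, had no counts in any of the 14 libraries. Fgf5 and Wnt8a were low, with at most 3.51 and 1.77 CPM in any library. Of 10 ES cell markers, 3 rose and 7 fell under vehicle (median -0.404), and 2 rose and 6 fell without treatment (median -0.388). Their part in the members' changes was not tested.

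Most members were lower with the inhibitor, a larger share than among all genes. The members were chosen with earlier results of these data known. The Lefty genes and Nodal are also targets of the same signal, so these counts are a description. In wild-type cells 5 of 6 fell and none rose (median -0.54), where 18.7% of genes fell and 19.0% rose (median 0.0119). In TKO cells 5 fell and 1, Smad7, rose (median -0.57), where 19.6% fell and 19.9% rose (median -0.00258). These comparisons share no library with each other. Of the 10 ES cell markers, 7 fell with the inhibitor in wild-type cells (median -0.177) and 6 in TKO cells (median -0.35), and none rose. The part of this change in the members was not tested. Set against wild-type vehicle cells, TKO cells with the inhibitor had 4 of 6 members lower and none higher (median -0.618), where 36.7% of genes were lower and 39.6% higher (median 0.0292). That comparison shares its libraries with the 3 others of experiment 1.

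Tet1-KO TKO cells differed from TKO cells in 1 member that rose, Smad7, and 1 that fell, Lefty1 (median -0.174), where 11.6% of genes rose and 10.4% fell (median 0.00352). Against wild-type cells 3 members were higher and 2 lower (median 0.1), where 26.3% of genes were higher and 24.4% lower (median -0.00203). The 3 comparisons of experiment 2 share groups, so their calls are not independent. Scaling by library size alone moved the median of all genes from 0.0116 to 0.161 in TKO against wild-type vehicle cells, with 63.5% of calls higher in place of 50.5%, and from 0.0292 to 0.168 for both perturbations against neither, with 61.5% in place of 51.9%. In Tet1-KO TKO against TKO cells it moved the share of calls that were higher from 52.9% to 40.6%.

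**Figure D2:**
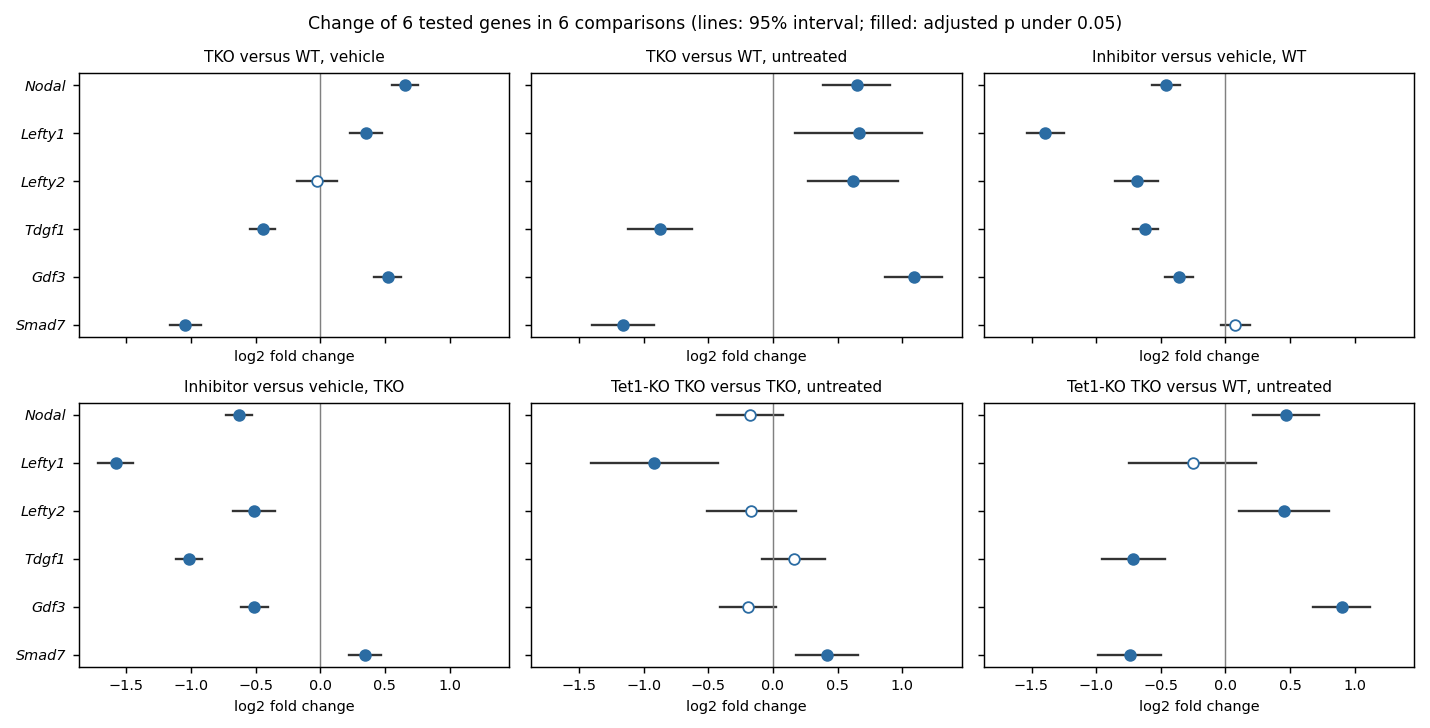
log2 fold change (x axis) of the 6 tested genes (rows) in 6 comparisons (panels), the first group named over the second. Points are edgeR estimates, lines their 95% intervals, and filled points have an adjusted p under 0.05. Lefty1 lay farthest to the left in both inhibitor panels, at -1.39 and -1.58, and Smad7 in both comparisons of TKO with wild-type cells, at -1.05 and -1.16.

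Nodal, the ligand, was expressed in every library and was higher in TKO cells. The 2 replicates read 47.8 and 47.4 CPM in wild-type vehicle cells and 74.6 and 75.3 CPM in TKO vehicle cells. With the inhibitor they read 34.4 and 34.8 CPM in wild-type and 48.6 and 48.3 CPM in TKO cells. No library of 1 group overlapped another, and TKO inhibitor cells lay just above wild-type vehicle cells. The genotype change under vehicle was 0.66 (SE 0.05, adjusted p = 2.91e-11, edgeR's quasi-likelihood test with Benjamini-Hochberg adjustment, as for all adjusted p below unless limma is named). With the inhibitor the change was -0.46 (SE 0.05, adjusted p = 3.6e-07) in wild-type and -0.63 (SE 0.05, adjusted p = 5.75e-10) in TKO cells. The difference of these changes was -0.17 (SE 0.07, adjusted p = 0.222), with a 95% interval from -0.32 to -0.02 before adjustment over genes.

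With both perturbations Nodal differed from wild-type vehicle cells by 0.03 (95% interval -0.08 to 0.13, adjusted p = 0.649). Scaled by library size alone this was 0.16 (adjusted p = 0.00544). In experiment 2 Nodal read 44.6 and 44.0 CPM in untreated wild-type cells, 74.1 and 64.6 CPM in TKO and 67.3 and 55.2 CPM in Tet1-KO TKO cells. The wild-type libraries were the lowest, and those of the other groups overlapped. Nodal rose in TKO cells by 0.65 (SE 0.12, adjusted p = 0.00075). The change under vehicle differed from this by -0.02 (SE 0.12, limma adjusted p = 0.942, 95% interval -0.27 to 0.23). Tet1-KO TKO cells differed from TKO cells by -0.18 (SE 0.12, adjusted p = 0.299) and from wild-type cells by 0.47 (SE 0.12, adjusted p = 0.0058). The latter call was lost without Tet1-KO TKO replicate 1 (0.32, adjusted p = 0.0721).

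Gdf3, a ligand related to Nodal that can also hold back BMP signals, followed Nodal in direction in the genotype and inhibitor comparisons. Its replicates read 74.4 and 79.8 CPM in wild-type vehicle, 60.6 and 59.5 CPM in wild-type inhibitor, 108 and 113 CPM in TKO vehicle, and 79.9 and 75.2 CPM in TKO inhibitor cells. TKO inhibitor and wild-type vehicle libraries overlapped, and the other groups stood apart. Gdf3 rose in TKO vehicle cells by 0.52 (SE 0.05, adjusted p = 2.11e-09). It fell with the inhibitor by 0.36 (SE 0.05, adjusted p = 8.06e-06) in wild-type and by 0.51 (SE 0.05, adjusted p = 1.99e-08) in TKO cells, and the difference of these changes was -0.15 (SE 0.07, adjusted p = 0.277). The combined difference was 0.01 (95% interval -0.10 to 0.11, adjusted p = 0.876), and 0.15 (adjusted p = 0.0102) when scaled by library size alone.

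In experiment 2 Gdf3 had the largest rise in TKO cells among the 6 tested members. It read 53.2 and 49.9 CPM in untreated wild-type cells, 107 and 112 CPM in TKO and 102 and 90.3 CPM in Tet1-KO TKO cells. Its rise in TKO cells was 1.09 (SE 0.10, adjusted p = 4.02e-06), or 2.13-fold, against 1.43-fold under vehicle. A fit over both experiments (limma) put the genotype change under vehicle 0.60 below that without treatment (-0.60, SE 0.11, adjusted p = 0.00173). TKO cells stood at 111 ± 3.02 CPM under vehicle and 109.7 ± 3.80 CPM untreated, and wild-type cells at 77.1 ± 3.78 and 51.5 ± 2.36 CPM, each scaled within its own table. Tet1-KO TKO cells differed from TKO cells by -0.19 (SE 0.10, adjusted p = 0.189) and from wild-type cells by 0.90 (SE 0.10, adjusted p = 1.59e-05).

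Tdgf1, which encodes Cripto, was lower in TKO cells and lower with the inhibitor. Its replicates read 758 and 774 CPM in wild-type vehicle, 511 and 486 CPM in wild-type inhibitor, 571 and 553 CPM in TKO vehicle and 289.6 and 266 CPM in TKO inhibitor cells, with no overlap between any of the 4 groups. It fell in TKO vehicle cells by 0.45 (SE 0.05, adjusted p = 9.61e-09). Its change with the inhibitor was -0.62 (SE 0.05, adjusted p = 3.77e-10) in wild-type and -1.02 (SE 0.05, adjusted p = 5.81e-14) in TKO cells. Tdgf1 was the 1 member whose inhibitor change differed between genotypes by the interaction test (-0.40, SE 0.07, adjusted p = 0.000776), where 1.77% of genes had a positive and 2.12% a negative interaction. With both perturbations it stood 1.46 (SE 0.05, adjusted p = 1.66e-18) below wild-type vehicle cells on the log2 scale, a 2.76-fold difference.

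In experiment 2 Tdgf1 read 1646 and 1974 CPM in untreated wild-type cells, 968 and 1005 CPM in TKO and 1061 and 1146 CPM in Tet1-KO TKO cells. Wild-type cells were highest and the other groups lay close together without overlap. The fall in TKO cells was -0.87 (SE 0.11, adjusted p = 5.46e-05), which differed from the fall under vehicle by 0.39 (SE 0.10, limma adjusted p = 0.0146). The latter call was lost without untreated wild-type replicate 2 (0.26, adjusted p = 0.0645), without TKO vehicle replicate 1 (0.36, adjusted p = 0.0608) and without untreated TKO replicate 1 or 2 (0.36 and 0.41, adjusted p = 0.126 and 0.0529). Tet1-KO TKO cells differed from TKO cells by 0.16 (95% interval -0.08 to 0.41, adjusted p = 0.332) and stood 0.71 below wild-type cells (-0.71, SE 0.11, adjusted p = 0.000226).

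Lefty1 had the largest fall with the inhibitor of any member. Its replicates read 40.4 and 40.7 CPM in wild-type vehicle and 15.4 and 15.5 CPM in wild-type inhibitor cells. In TKO cells they read 53.6 and 50.1 CPM with vehicle and 16.4 and 18.2 CPM with the inhibitor. Both inhibitor groups lay far below both vehicle groups. The change was -1.39 (SE 0.07, adjusted p = 1.31e-13) in wild-type and -1.58 (SE 0.07, adjusted p = 4.42e-15) in TKO cells, or 2.63-fold and 2.996-fold lower, and the interaction was not called (-0.19, SE 0.10, adjusted p = 0.31, 95% interval -0.39 to 0.01). Under vehicle Lefty1 was 0.36 higher in TKO cells (SE 0.06, adjusted p = 1.26e-05). With both perturbations it stood 1.23 below wild-type vehicle cells (-1.23, SE 0.07, adjusted p = 3e-14).

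Lefty1 varied most between replicates without treatment. It read 114 and 151 CPM in untreated wild-type cells, 156 and 264 CPM in TKO and 91.3 and 131 CPM in Tet1-KO TKO cells. TKO libraries were the highest, and those of Tet1-KO TKO and wild-type cells overlapped. In each of the 3 groups the replicate with the higher Lefty1 level, replicate 2, also had the higher summed level of endoderm markers, at 341 against 190 CPM in untreated wild-type cells, 144 against 90.3 CPM in TKO and 353 against 156 CPM in Tet1-KO TKO cells. Between the groups the order was another: the untreated TKO libraries had the lowest endoderm sums and the highest Lefty1 levels. The part of the endoderm markers in the Lefty1 values was not tested.

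Lefty1 rose in untreated TKO cells by 0.66 (SE 0.23, adjusted p = 0.0274), a call lost in DESeq2 (0.67, adjusted p = 0.167), without wild-type replicate 1 (0.46, adjusted p = 0.181) and without TKO replicate 2 (0.24, adjusted p = 0.372). In Tet1-KO TKO cells it was lower than in TKO cells (-0.92, SE 0.23, adjusted p = 0.0133). That call was lost in DESeq2 (-0.92, adjusted p = 0.0901), without Tet1-KO TKO replicate 1 (-0.68, adjusted p = 0.0976) and without TKO replicate 2 (-0.49, adjusted p = 0.131). TKO replicate 2 is the library with 264 CPM. Tet1-KO TKO and wild-type cells differed by -0.25 (95% interval -0.74 to 0.24, adjusted p = 0.373). The difference between the genotype changes of the 2 experiments was -0.31 (SE 0.23, limma adjusted p = 0.434), and -0.70 (adjusted p = 0.0442) without untreated TKO replicate 1.

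Lefty2, the neighbour of Lefty1 and its close relative, fell with the inhibitor too, by less. It read 64.1 and 55.2 CPM in wild-type vehicle, 39.5 and 34.0 CPM in wild-type inhibitor, 63.5 and 53.5 CPM in TKO vehicle and 39.7 and 42.4 CPM in TKO inhibitor cells. Vehicle libraries of the 2 genotypes overlapped and all inhibitor libraries lay below them. The change was -0.69 (SE 0.08, adjusted p = 2.93e-07) in wild-type and -0.51 (SE 0.08, adjusted p = 1.21e-05) in TKO cells, with a difference of 0.18 (SE 0.11, adjusted p = 0.436). Under vehicle the genotypes differed by -0.03 (95% interval -0.18 to 0.13, adjusted p = 0.782), a value that turns to 0.13 (adjusted p = 0.162) with library-size scaling. With both perturbations Lefty2 was 0.54 lower (-0.54, SE 0.08, adjusted p = 1.15e-06).

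In experiment 2 it read 201 and 207 CPM in untreated wild-type cells, 258 and 369 CPM in TKO and 244 and 314 CPM in Tet1-KO TKO cells. Wild-type libraries were the lowest. Lefty2 rose in TKO cells by 0.62 (SE 0.16, adjusted p = 0.00643), a call lost without TKO replicate 2 (0.34, adjusted p = 0.118). This change exceeded that under vehicle by 0.65 (the difference vehicle minus untreated was -0.65, SE 0.19, limma adjusted p = 0.0282), but without untreated TKO replicate 2 the difference was -0.40 (adjusted p = 0.238). Scaled by library size it was -0.52 (adjusted p = 0.0858), and leaving out any of 4 other libraries also ended the call: wild-type vehicle replicate 1 (-0.55, adjusted p = 0.092), TKO vehicle replicate 2 (-0.53, adjusted p = 0.109) and untreated wild-type replicate 1 or 2 (-0.63 and -0.67, adjusted p = 0.0595 and 0.056). In Tet1-KO TKO cells Lefty2 differed from TKO cells by -0.17 (95% interval -0.51 to 0.18, adjusted p = 0.487) and from wild-type cells by 0.45 (SE 0.16, adjusted p = 0.0313). The latter call was lost without wild-type replicate 1 (0.43, adjusted p = 0.0972), without wild-type replicate 2 (0.48, adjusted p = 0.0631) and without Tet1-KO TKO replicate 2 (0.26, adjusted p = 0.258).

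The ratio of Lefty1 to Lefty2 per kilobase of exon was computed within each library, which removes library size. It was 0.935 and 1.10 in wild-type vehicle, 1.25 and 1.39 in TKO vehicle, 0.578 and 0.676 in wild-type inhibitor and 0.614 and 0.639 in TKO inhibitor cells. Untreated wild-type cells gave 0.843 and 1.09, TKO cells 0.900 and 1.06 and Tet1-KO TKO cells 0.555 and 0.619. The ratio was below 0.7 in all 6 libraries of the inhibitor and Tet1-KO TKO groups and above 0.8 in the other 8. No test was run on the ratio. Exon lengths came from another build than the counts, and the genes differ in the share of sequence found in other genes. The absolute ratio therefore need not give the relative amounts of the transcripts.

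**Figure D3:**
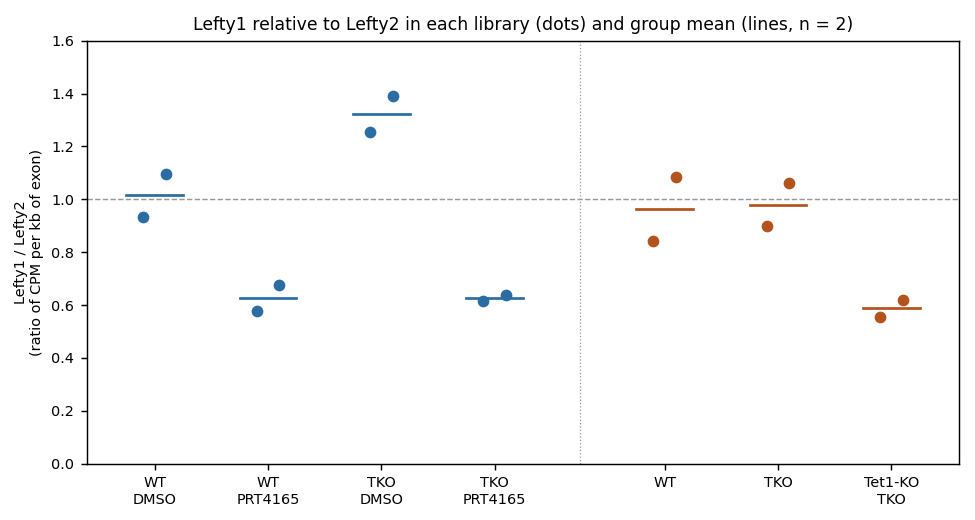
Ratio of Lefty1 to Lefty2 level, each in CPM per kilobase of exon, on a linear axis from 0. Dots are the 14 libraries, short lines group means (n = 2), blue experiment 1 and brown experiment 2, and the dashed line marks a ratio of 1. The inhibitor and Tet1-KO TKO libraries lie between 0.555 and 0.676.

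The Lefty genes lie close together on chromosome 1, a chromosome whose genes were lower in TKO cells: their median log2 change was -0.404 under vehicle and -0.456 without treatment, where the other autosomes had 0.0121 and 0.00288. Relative to that median, Lefty1 stood 0.759 and Lefty2 0.379 higher under vehicle, and 1.12 and 1.08 higher without treatment. The nearest 21 tested genes around the pair had a median of -0.273 under vehicle, with 4 rising and 11 falling, and of -0.168 without treatment, with 4 rising and 7 falling. Over all tested genes 34.8% rose and 34.2% fell under vehicle, and 25.9% and 24.3% without treatment. With the inhibitor 19.0% rose and 18.7% fell in wild-type cells, and 19.9% and 19.6% in TKO cells. The inhibitor left the same neighbours at a median of 0.0127 in wild-type and 0.0137 in TKO cells, with 2 rising and 2 falling in the first and 1 rising and 3 falling in the second. Among them Sde2, which lies next to Lefty2, rose by 1.20 (SE 0.05) in TKO inhibitor cells, where Lefty2 fell. Whether copy number or line differences have a part in the chromosome 1 values was not tested.

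**Figure D4:**
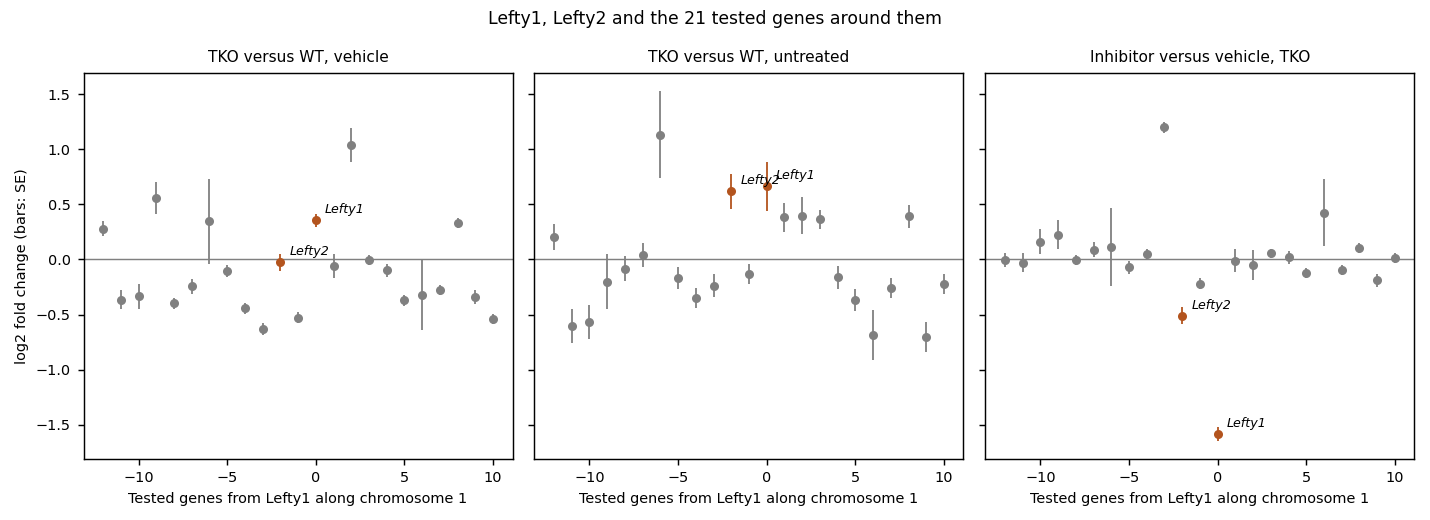
log2 fold change with its SE (bars) of Lefty1, Lefty2 (brown) and the 21 tested genes around them (grey), in gene order along chromosome 1 with Lefty1 at 0, for 3 comparisons. Under vehicle most neighbours lie below 0 (median -0.273), and with the inhibitor in TKO cells the neighbours centre near 0 (median 0.0137) while Lefty1 lies at -1.58.

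Cer1, an antagonist of Nodal and BMP ligands made in anterior endoderm, was all but undetected. It had 0 counts in all 6 wild-type libraries, which allows up to 3 counts in each. TKO vehicle cells had 4 and 1 counts, TKO inhibitor cells 1 and 4, untreated TKO cells 2 and 2 and Tet1-KO TKO cells 5 and 0. No fold change is given at such counts, and the limit of 3 covers counting error only.

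Smad7, which blocks the receptors from inside the cell, behaved opposite to the ligands in TKO cells. It read 159.9 and 160.4 CPM in wild-type vehicle, 156 and 183 CPM in wild-type inhibitor, 79.4 and 75.8 CPM in TKO vehicle and 99.1 and 98.1 CPM in TKO inhibitor cells. All TKO libraries lay below all wild-type libraries. The genotype change under vehicle was -1.05 (SE 0.06, adjusted p = 5.2e-14), or 2.06-fold lower. The inhibitor raised Smad7 in TKO cells by 0.35 (SE 0.06, adjusted p = 4.54e-05). In wild-type cells its change was 0.08 (SE 0.06, adjusted p = 0.291), which became 0.20 (adjusted p = 0.0085) without inhibitor replicate 1 and -0.03 (adjusted p = 0.742) without inhibitor replicate 2. The interaction was 0.27 (SE 0.08, adjusted p = 0.0585), and it passed the threshold with no filter on low counts (0.27, adjusted p = 0.0304), without wild-type vehicle replicate 1 (0.27, adjusted p = 0.0453) and without wild-type inhibitor replicate 2 (0.38, adjusted p = 0.00482). With both perturbations Smad7 stood 0.70 lower (-0.70, SE 0.06, adjusted p = 5.51e-11).

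In experiment 2 Smad7 read 245 and 234 CPM in untreated wild-type cells, 107 and 107 CPM in TKO and 128 and 158 CPM in Tet1-KO TKO cells, and the 3 groups did not overlap. It fell in TKO cells by 1.16 (SE 0.11, adjusted p = 5.15e-06), and the fall differed from that under vehicle by 0.08 (95% interval -0.18 to 0.35, limma adjusted p = 0.726). In Tet1-KO TKO cells it was 0.42 above TKO cells (SE 0.11, adjusted p = 0.0187) and 0.74 below wild-type cells (-0.74, SE 0.11, adjusted p = 0.000146). The former call was lost without TKO replicate 1 or 2 (0.42 and 0.42, adjusted p = 0.122 and 0.121) and without Tet1-KO TKO replicate 2 (0.26, adjusted p = 0.175).

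Across both experiments the change in TKO cells was compared between vehicle and no treatment for 17246 genes, of which 4.26% had a higher and 7.10% a lower change under vehicle. Tdgf1 was among the first and Gdf3 and Lefty2 among the second, with the values given above. Treatment, experiment and culture differ together between the tables and cannot be told apart.

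The other genes of the pathway moved in both directions. For the counts that follow, the shares of all tested genes were 34.8% rising and 34.2% falling in TKO vehicle cells, 25.9% and 24.3% in untreated TKO cells, 19.0% and 18.7% with the inhibitor in wild-type cells, 19.9% and 19.6% with it in TKO cells, and 11.6% and 10.4% in Tet1-KO TKO against TKO cells. Among 5 tested activin and TGF-beta ligand genes, 1 rose and 2 fell in TKO vehicle cells. Inhbb, which encodes the activin B subunit, fell from 362 ± 1.40 to 47.6 ± 4.78 CPM (-2.93, SE 0.06) and from 417 ± 63.8 to 35.3 ± 13.2 CPM (-3.56, SE 0.26) without treatment, where 2 of 4 tested ligand genes fell and none rose. With the inhibitor Inhbb changed by -0.87 (SE 0.05) in wild-type and by -0.66 (SE 0.06) in TKO cells, among 3 falling and 1 rising of 5, and 1 falling and 2 rising of 5. Tgfb2 rose in both, from low levels. It went from 0.374 ± 0.178 to 3.57 ± 0.655 CPM in wild-type cells (3.25, SE 0.33). In TKO cells it went from 0.537 ± 0.140 to 5.56 ± 1.63 CPM (3.35, SE 0.28). Of 8 tested receptor, co-receptor and protease genes, 3 rose and 4 fell in TKO vehicle cells, and of 9 tested without treatment 1 rose and 4 fell. The type I receptor gene Acvr1b, which serves Nodal and activin, fell by 0.96 (SE 0.07) and 1.10 (SE 0.12), and Tgfbr2, the type II receptor gene for TGF-beta, by 2.60 (SE 0.20) and 2.80 (SE 0.27). Tgfbr1 rose by 0.56 (SE 0.06) and 0.32 (SE 0.10). With the inhibitor the counts were 2 rising and 2 falling of 8 in wild-type and 2 and 3 of 8 in TKO cells, with Acvr1b down by -0.19 (SE 0.06) and -0.29 (SE 0.07).

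Of the 8 SMAD and partner genes, 1 rose and 4 fell in TKO vehicle cells (median log2 change -0.132) and 1 rose and 2 fell without treatment (median -0.127), where 34.8% and 25.9% of all tested genes rose and 34.2% and 24.3% fell. Foxh1, the DNA-binding partner of Smad2 and Smad3, was the gene that rose, from 29.9 ± 5.06 to 50.3 ± 2.28 CPM (0.74, SE 0.08) and from 15.1 ± 1.70 to 37.0 ± 1.29 CPM (1.29, SE 0.13). The repressor gene Tgif1 fell by 0.84 (SE 0.05) and 0.86 (SE 0.12). With the inhibitor the changes were small: in wild-type cells 1 rose and 4 fell, with Smad2 at -0.30 (SE 0.05) and Smad3 at 0.25 (SE 0.08), and in TKO cells 2 rose and 2 fell, with Smad2 at -0.16 (SE 0.05) and Smad3 at 0.30 (SE 0.08). In Tet1-KO TKO against TKO cells 2 of 8 rose and none fell: Smad3 by 0.75 (SE 0.15) and Foxh1 by 0.46 (SE 0.12).

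Among 14 other inhibitor and feedback genes, 8 rose and 4 fell in TKO vehicle cells (median 0.312) and 4 rose and 3 fell without treatment (median 0.139). Of all tested genes 34.8% rose and 34.2% fell in the first and 25.9% and 24.3% in the second, so the untreated counts are near the background. Pmepa1, a feedback inhibitor of TGF-beta signalling, fell by 1.22 (SE 0.06) and 1.18 (SE 0.11), and Skil, which encodes a repressor that binds SMADs, rose by 0.41 (SE 0.05) and 0.75 (SE 0.10). With the inhibitor 1 rose and 4 fell in wild-type cells and 6 rose and 2 fell in TKO cells, with Skil down by -0.29 (SE 0.05) and -0.38 (SE 0.05). Pmepa1 had the 1 called interaction of this list (0.42, SE 0.08, adjusted p = 0.00468). Tet1-KO TKO cells had 2 of these genes higher and 1 lower than TKO cells, the lower one being Skil (-0.38, SE 0.10, adjusted p = 0.017).

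The last part of the pathway list held 10 genes that respond to Nodal during gastrulation. In TKO vehicle cells 6 of 10 rose and none fell (median 1.86), where 34.8% of all tested genes rose, and without treatment 5 of 9 rose and 1 fell (median 1.13), where 25.9% rose. Gsc, Fgf8, Wnt3, Lhx1, T and Mixl1 were low in the vehicle groups. Their means ran from 0.0155 CPM (Lhx1, wild-type cells) to 1.29 CPM (Fgf8, TKO cells), so the median rests in part on low counts. The homeobox gene Otx2, which acts in the epiblast and the anterior embryo, rose from 3.27 ± 0.226 to 12.3 ± 0.284 CPM (1.91, SE 0.12) and from 4.79 ± 2.21 to 21.7 ± 0.156 CPM (2.16, SE 0.23), and up to 4.0% of its exon bases also lie in another gene model. With the inhibitor 3 of 10 rose and none fell in wild-type cells, and 2 rose and 1 fell in TKO cells. In Tet1-KO TKO against TKO cells 2 of 9 rose and 1 fell, with Eomes, a T-box gene of mesendoderm and trophoblast, up by 1.76 (SE 0.19, adjusted p = 8.88e-05).

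The BMP branch, a parallel pathway whose ES cell targets include the Id genes, had 5 of 14 genes rising and 5 falling in TKO vehicle cells (median 0.0682), near the 34.8% and 34.2% of all tested genes, and 3 rising and 6 falling without treatment (median -0.192), where the shares were 25.9% and 24.3%. The ligand gene Bmp4 fell from 117 ± 4.51 to 17.2 ± 0.694 CPM under vehicle (-2.76, SE 0.06), where 4.0% of its exon bases also lie in another gene model. The Id genes did not move together. In TKO vehicle cells Id2 changed by 1.93 (SE 0.07), Id3 by 1.24 (SE 0.06) and Id1 by -0.26 (SE 0.07). With the inhibitor Id1 fell by 1.36 (SE 0.07) in wild-type and by 1.14 (SE 0.07) in TKO cells. Id3 changed by -0.40 (SE 0.06) and -0.55 (SE 0.05), and Id2 by 0.72 (SE 0.07) and -0.39 (SE 0.06), in the same order. Among the 14 genes 4 rose and 2 fell in wild-type cells, and 5 rose and 4 fell in TKO cells.

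**Figure D5:**
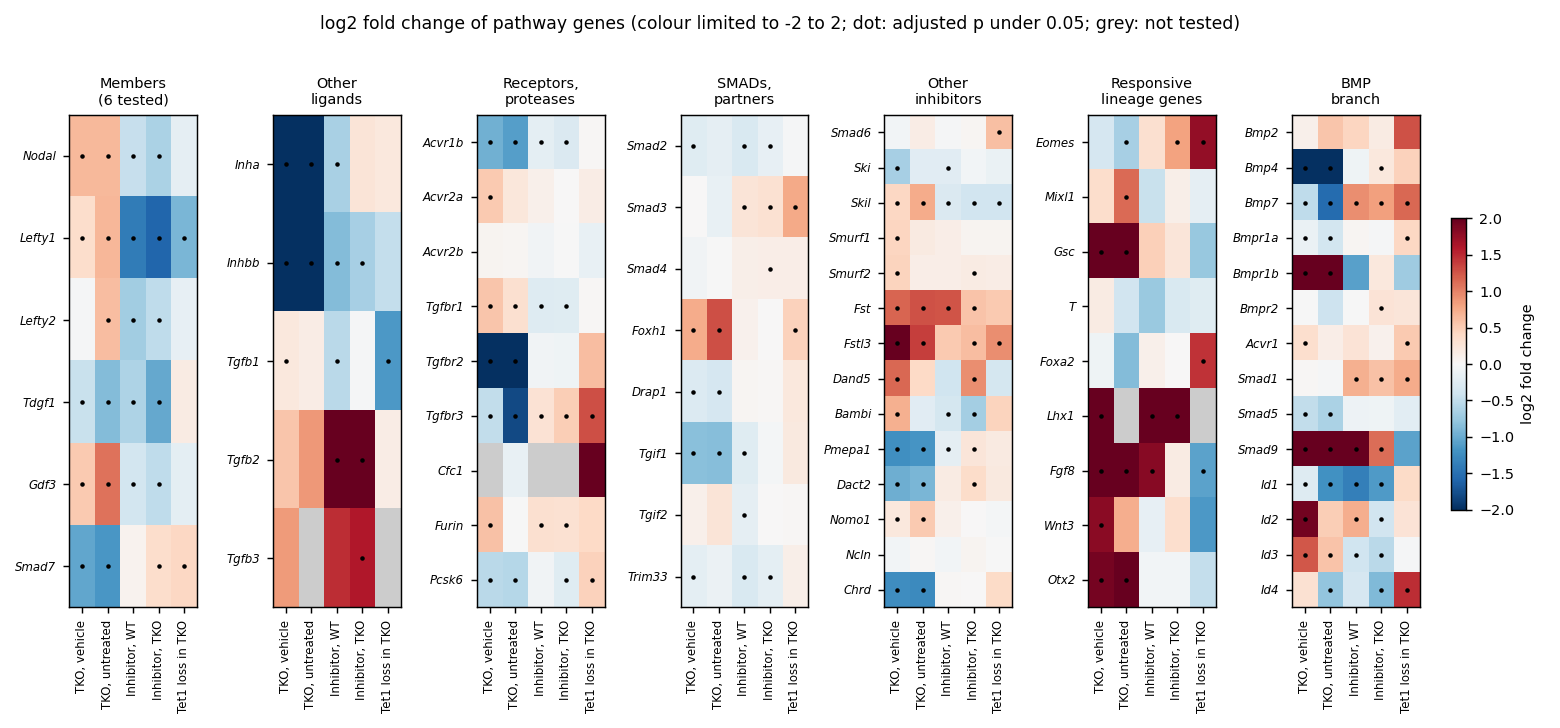
log2 fold change (colour, limited to -2 to 2) of the 6 tested members and of tested genes of 6 other lists in 5 comparisons (columns): TKO against wild type with vehicle and untreated, inhibitor against vehicle in wild-type and TKO cells, and Tet1-KO TKO against TKO. Black dots mark an adjusted p under 0.05 and grey a gene not tested. Lefty1, Tdgf1, Inhbb and Id1 are blue in both inhibitor columns, with changes from -0.62 to -1.58.

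The members were last compared by pattern. For each, the distance was taken between its 5 log2 changes (genotype under vehicle, inhibitor in each genotype, genotype without treatment, and Tet1-KO TKO against TKO) and those of 12002 named protein-coding genes with at least 1 CPM on average in both experiments. Nodal and Gdf3 were the closest pair of members, at a distance of 0.487 on the log2 scale, and Lefty1 and Smad7 the farthest, at 3.60. Lefty1 and Lefty2 lay 1.53 apart, farther than Lefty2 from Nodal (0.728) or Gdf3 (0.79). Nodal had 84 genes within 0.5, of which the nearest were Zfp182 (0.0951), Zfp418 (0.247) and Zfp990 (0.254). Gdf3 had 53, led by Slc12a2 (0.257), Dppa2 (0.29) and Sfrp4 (0.316). Lefty2 had 46, led by Pbrm1 (0.239), and Smad7 had 127, led by Ucp2 (0.136). Tdgf1 had 9, led by Kbtbd4 (0.304). Lefty1 had none within 0.5, and its nearest was Zfp273 at 0.982. The comparisons share groups, so the distances are a description.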

How the data were processed

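RNA-seq of 14 libraries was analysed from 2 deposited tables of read counts per Ensembl gene, whole numbers that the authors had not normalized. The submitters' processing notes name the build mm9 and the tools HTSeq 0.5.3p9, TopHat2 2.0.2 and Bowtie 0.12.8. Not given in the sources used here are the strand setting, the annotation release and the dose and duration of PRT4165. Groups came from the sample labels. One column of Tet1-KO TKO cells carries the suffix 1B and was taken as replicate 1. Gene symbols, exon lengths and transcripts came from GENCODE M21 (GRCm38, another build than that of the counts), which gave a symbol to 32938 of 37991 IDs.

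Genes passing filterByExpr (minimum count 10, minimum total 15) were scaled by TMM and tested with edgeR 4.0.16 (R 4.3.3), the quasi-likelihood F-test, two-sided, with all groups of an experiment in 1 fit (4 and 3 residual degrees of freedom), Benjamini-Hochberg adjustment over all genes and a threshold of 0.05. The difference of the TKO change between experiments was tested over all 14 libraries with limma 3.58.1 and 1 weight per experiment. All log2 changes are the first group over the second. Alternatives were DESeq2 1.42.0, library-size scaling, no filter, a mean of at least 1 CPM, a replicate block and leaving out each library. The edgeR test was checked on simulated data for the TKO change in each experiment. The limma test was checked there for recovery of changes only, not for false calls, and the interaction was not simulated. Total counts per library give the depth, and statements on 0 counts cover counting error only.

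The members and gene lists were chosen with earlier results of these data known. Named genes were all members, the targeted genes, up to 3 called genes per list, direction and comparison with the smallest p and non-overlapping libraries, and the 3 genes most like each member. The text describes a selection of these. A few items are not reported here.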

Additional observations from a re-analysis of the deposited data

Results flagged for a closer look

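A total of 4 member results differed between groups by a test of the difference itself, and no cause was tested for any of them. The log2 change of Tdgf1 with the inhibitor was lower in TKO than in wild-type cells by 0.40 (-0.397, SE 0.0673, edgeR adjusted p = 0.000776), and this call held in all 14 alternatives, with adjusted p from 5.43e-06 to 0.00961. The change in TKO against wild-type cells under vehicle, less the same change without treatment, was -0.597 for Gdf3 (SE 0.111, limma adjusted p = 0.00173). This held in all 12 alternatives, with adjusted p from 0.000959 to 0.0193. The same difference was 0.390 for Tdgf1 (SE 0.0985, limma adjusted p = 0.0146, from 0.000668 to 0.126 over the alternatives) and -0.652 for Lefty2 (SE 0.186, limma adjusted p = 0.0282, from 0.00184 to 0.238).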

How the results depend on the processing

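Of 618 alternatives over 54 member results, 570 kept the direction and the side of the threshold, 25 lost the call, 8 gained it and 15 turned the direction, and in no result that was called did the direction turn. With 2 libraries a group, a fit without 1 library assumes that the lone one varies like the other groups. The cause of the shifts that follow was not tested. The number of called members in the interaction was 1, became 2 with no filter and ranged from 1 to 2 over the fits without 1 library. In Tet1-KO TKO against TKO cells it was 2, became 1 in DESeq2 and ranged from 0 to 1 without 1 library. For the TKO change under vehicle less that without treatment it was 3 and ranged from 1 to 3. Over all genes, calls in the interaction went from 650 to 417 in DESeq2 and to 304 without TKO vehicle replicate 2. In Tet1-KO TKO against TKO cells they went from 3584 to 1633 without TKO replicate 1, and in the difference between experiments from 1959 to 606 without untreated TKO replicate 1.

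Directions turned only for results that were not called. In the main fit 2 of these lay farther from 0 than the others. They were Lefty2 in Tet1-KO TKO against TKO cells (-0.17) and Lefty1 in the difference between experiments (-0.31). Lefty2 in TKO against wild-type vehicle cells became 0.13 with library-size scaling and 0.0339 with a mean of at least 1 CPM, and ranged from -0.16 to 0.10 without 1 library. With both perturbations Gdf3 became -0.0167 with no filter and ranged from -0.0550 to 0.0472, and Nodal ranged from -3.81e-05 to 0.0260. Smad7 with the inhibitor in wild-type cells ranged from -0.0289 to 0.198, and Lefty2 in Tet1-KO TKO against TKO cells from -0.40 to 0.12. For the difference between experiments Nodal became 0.11 with library-size scaling and 0.0453 with a mean of at least 1 CPM, and ranged from -0.121 to 0.0748, and Lefty1 ranged from -0.695 to 0.0623.

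With a replicate block the called members were 5, 5, 6, 4 and 1 in the comparisons of experiment 1, as without it, and 6 in place of 5 in Tet1-KO TKO against wild-type cells, where Lefty1 was then called (-0.27, adjusted p = 0.0462). No other member call changed with the block. The labels give only a shared number, and the differences between replicates correlated between groups at -0.0345 to 0.0384 in experiment 1 and at 0.111 to 0.236 in experiment 2.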
